A study of Mus musculus with 9 samples.

Results

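The set described here holds 10 genes of meiotic double-strand break formation and recombination, Spo11, Mei1, Mei4, Rec114, Prdm9, Dmc1, Hfm1, Msh4, Msh5 and Mlh3. They were chosen by name for their roles, among 46078 genes in the count files, and all 10 were present. RNA-seq counts were read in 9 libraries of EGFP-SSCs, a wild-type mouse spermatogonial stem cell (SSC) line that carries EGFP, with 3 libraries (labelled as biological replicates) for 0 h, 3 for 24 h and 3 for 48 h. Cells at 0 h were kept in the normal culture, on fibroblast feeders blocked with mitomycin C, in StemPro-34 medium with GDNF, basic FGF, EGF and 1% FBS. Cells at 24 h and 48 h were differentiated in co-culture, mixed 1:1 with testicular somatic cells from busulfan-treated mice aged 3 to 7 days. That medium was α-MEM with 10% KSR, BMP-4/7, retinoic acid, activin A, testosterone, FSH and BPE, and EGFP-positive cells were sorted after differentiation. All libraries therefore come from 1 cell line, and the labels do not say whether the replicates were separate cultures, so that p-values cover only the spread between these libraries.

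Meiotic recombination begins when SPO11 cuts both strands of DNA at many sites, at places marked by the histone methyltransferase PRDM9. MEI1, MEI4 and REC114 are needed for these cuts and act on the chromosome axis. The cut ends are resected, and the recombinase DMC1 leads them into the homologous chromosome. A part of the resulting joints becomes crossovers, through the helicase HFM1, the MSH4-MSH5 complex that holds the joints, and the nuclease activity of MLH3 that resolves them. In the testis these events belong to the spermatocyte, the stage that follows differentiating spermatogonia.

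Start-site regions are shown for the 3 genes that changed by the main test in at least 1 comparison (Mei1, Mei4 and Msh5). For Prdm9, the start whose window holds the same motifs as Msh5 is shown. The regions are taken from a table of RefSeq promoters (GRCm38.p6), in which 9 of the 10 genes were matched and no entry matched Spo11. The 250 bases before each start were searched on both strands for CNCCTCAG, the motif known for STRA8 and MEIOSIN, TTCCCGC, an E2F motif, CACGTG, an E-box, and AGGTCA, a hexamer recognised by retinoic acid receptors. Capitals mark the matches, each sequence runs 5′ to 3′ on the gene's strand, and a match describes letters only.
Mei1 (chr15:82082226-82082463, plus strand): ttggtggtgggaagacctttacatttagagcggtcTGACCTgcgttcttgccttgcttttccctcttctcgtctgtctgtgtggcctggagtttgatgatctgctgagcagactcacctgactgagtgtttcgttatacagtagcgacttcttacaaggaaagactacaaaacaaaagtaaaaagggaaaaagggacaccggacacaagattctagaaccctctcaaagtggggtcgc
Mei4 (chr9:81863420-81863669, plus strand): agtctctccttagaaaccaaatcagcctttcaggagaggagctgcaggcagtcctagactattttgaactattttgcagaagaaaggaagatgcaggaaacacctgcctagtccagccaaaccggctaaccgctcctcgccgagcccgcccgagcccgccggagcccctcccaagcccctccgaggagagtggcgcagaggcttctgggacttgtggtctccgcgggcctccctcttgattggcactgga
Prdm9 (chr17:15564355-15564604, minus strand): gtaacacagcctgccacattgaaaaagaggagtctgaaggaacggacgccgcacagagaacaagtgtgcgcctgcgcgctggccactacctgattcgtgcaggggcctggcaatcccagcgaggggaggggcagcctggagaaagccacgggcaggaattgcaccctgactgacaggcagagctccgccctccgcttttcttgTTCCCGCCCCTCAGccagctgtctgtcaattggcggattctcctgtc
Msh5 (chr17:35046681-35046704, minus strand): CTGAGGTGacggaaaagGCGGGAA
Of the Msh5 window, the stretch from its first to its last motif is shown, which lies inside the Msh5 gene of GENCODE M21, with 5 of its 24 bases in an annotated exon. The Mei1 stretch stops at −13, before an exon of another of its transcripts, and longer Mei1 transcripts of GENCODE M21 span it as an intron. Mei1 held AGGTCA on the minus strand at −215 to −210, a motif found in 14.02% of 32851 promoter windows of the same length. Mei4 held none of the 4 motifs. CNCCTCAG, present in 6.42% of all windows, lay in the Prdm9 window shown (−41 to −34), Msh5 (−82 to −75) and Hfm1 (−66 to −59). TTCCCGC, present in 3.82% of all windows, lay in Prdm9 (−47 to −41) and Msh5 (−65 to −59), and in Prdm9 it shares 1 base with CNCCTCAG. Rec114 held CACGTG at −19 to −14, as did 6.02% of all windows. The windows of Dmc1, Msh4 and Mlh3 held none of them. Another Prdm9 window, of a different start (chr17:15563332-15563581, minus strand), held none of the 4 motifs either and is not shown.

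Library totals ran from 16825251 to 22201892 counts, and all 10 genes passed the filter on low counts in each comparison. The 0 h libraries stood apart from each other along the GC content of the genes. Over 1010 genes with less than 40% GC, the median of log2 CPM in replicate 3 minus replicate 1 was −1.21, against 0.47 over 3842 genes with at least 55% GC. The same difference ran from −2.52 for Hfm1 (39.0% GC) to 0.19 for Rec114 (52.4% GC), with −0.10 for Mei1 (55.7% GC) and −0.32 for Mei4 (39.8% GC). Replicate 3 was the lowest 0 h library for 9 of the 10 genes, and 6 of the 10 had their highest SD at 0 h.

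**Figure D1:**
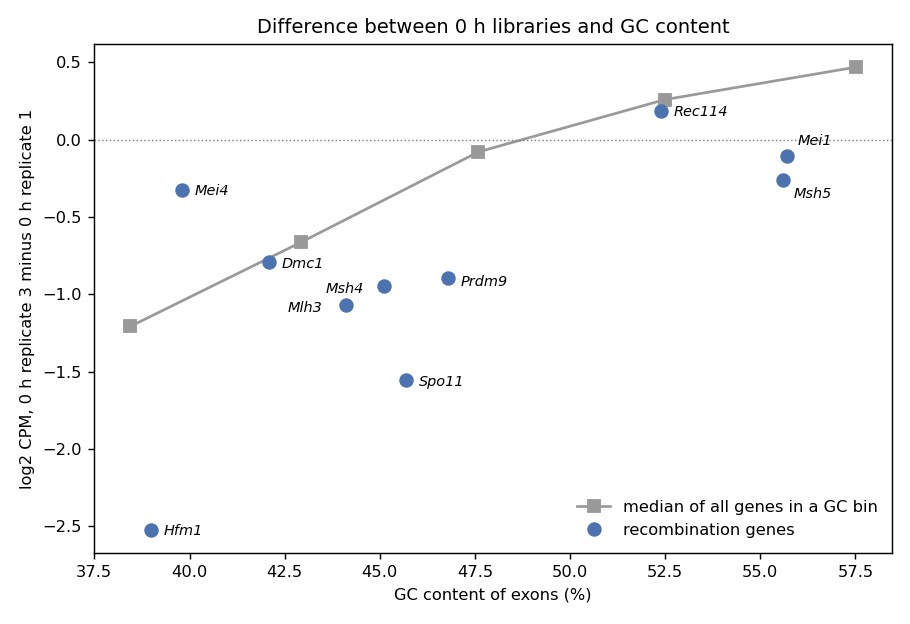
The x axis, labelled as GC content of exons, is that of each gene's longest transcript in percent. The y axis is log2 CPM in 0 h replicate 3 minus 0 h replicate 1. Grey squares are medians of all genes in 5 GC bins, from −1.21 to 0.47, and blue points are the 10 recombination genes, of which Hfm1 lies lowest at −2.52.

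The labelled germ cell identity was checked with Ddx4, an RNA helicase of germ cells, which stood at 356 ± 125, 362 ± 23.1 and 380 ± 8.86 CPM at 0, 24 and 48 h (mean ± SD, n = 3 each). Of 10 germ cell markers 9 were tested. At 24 h 2 were called higher (Sall4 and Kit) and 1 lower (Nanos3). At 48 h 1 was called higher (Kit) and 3 lower (Dnd1, Nanos3 and Zbtb16). The 10 summed to 1821–2765, 2770–2909 and 2444–2586 CPM, of which Kit held 8.45 ± 1.16, 571 ± 40.4 and 328 ± 13.1 CPM. Markers of testicular somatic cells were also measured in the sorted cells. Of 8 Sertoli cell markers, 7 rose at 24 h and 7 at 48 h, where 11.4% and 13.0% of all genes tested were called higher. The other, Sox9, was called lower at 24 h, with 11.7 ± 1.42, 6.68 ± 1.05 and 7.84 ± 1.39 CPM in the order of time (SD, n = 3). The sum of the 8 went from 16.6–19.7 CPM at 0 h to 59.1–92.3 and 71.9–75.2 CPM. Of 5 myoid cell markers 4 rose at both times, with sums of 8.67–10.8, 102–137 and 187–227 CPM. Of 6 stromal markers 4 rose at 24 h and 4 at 48 h, 3 of them at both times (Col1a1, Col3a1 and Tcf21), with sums of 197–260, 1484–1670 and 1861–2051 CPM. Leydig cell markers summed to 4.43–6.77, 25.2–38.5 and 25.6–31.9 CPM, with Hsd3b1 and Insl3 at 0 in every 0 h library, as was the stromal marker Tcf21. Endothelial markers summed to 43.2–47.8, 14.4–18.7 and 12.3–12.7 CPM, and macrophage markers to 15.4–16.7, 5.71–9.46 and 5.38–7.35 CPM, with C1qa at 0 in every library of 0 h and 48 h. The macrophage sum was mostly Cd68 (15.6 ± 0.600, 5.82 ± 1.51 and 5.42 ± 1.117 CPM, SD, n = 3), while Csf1r rose at 24 h (0.293 ± 0.140 to 1.09 ± 0.436 CPM). Of the endothelial markers, Tek rose at both times (1.41 ± 0.209, 3.51 ± 1.03 and 4.08 ± 0.622 CPM). The Sertoli, myoid, stromal and Leydig sums are higher at 24 h and 48 h, as Mei1 and Mei4 are, and their part in the changes of the 10 genes was not tested. In bulk libraries of sorted cells, fewer cells that express a gene and less RNA per cell cannot be told apart.

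Mei1 and Mei4 were the genes of the set that rose by the main test, and Msh5 fell at 48 h against 0 h. The Msh5 call held in 4 of 9 alternatives with all libraries and in 1 of 6 fits without a library. At 24 h against 0 h, 1 of the 10 genes changed (Mei1, higher), where 25.5% of all 17592 genes tested did, 11.4% higher and 14.2% lower. At 48 h against 0 h, 3 of the 10 changed, with Mei1 and Mei4 higher and Msh5 lower, against 31.6% of 17755 genes, 13.0% higher and 18.5% lower. From 24 h to 48 h, 1 of the 10 changed (Mei4, higher), against 21.3% of 17499 genes, 8.61% higher and 12.7% lower. Against 0 h, the median of their log2 fold changes was 0.06 at 24 h and −0.00 at 48 h. The same median was 0.19 between 24 h and 48 h. Medians over all genes tested were 0.01, 0.02 and −0.00. CPM of the groups did not overlap for 4 of the 10 genes at 24 h (43.1% of all genes), for 6 of 10 at 48 h (47.7%) and for 3 of 10 between 24 h and 48 h (38.5%).

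**Figure D2:**
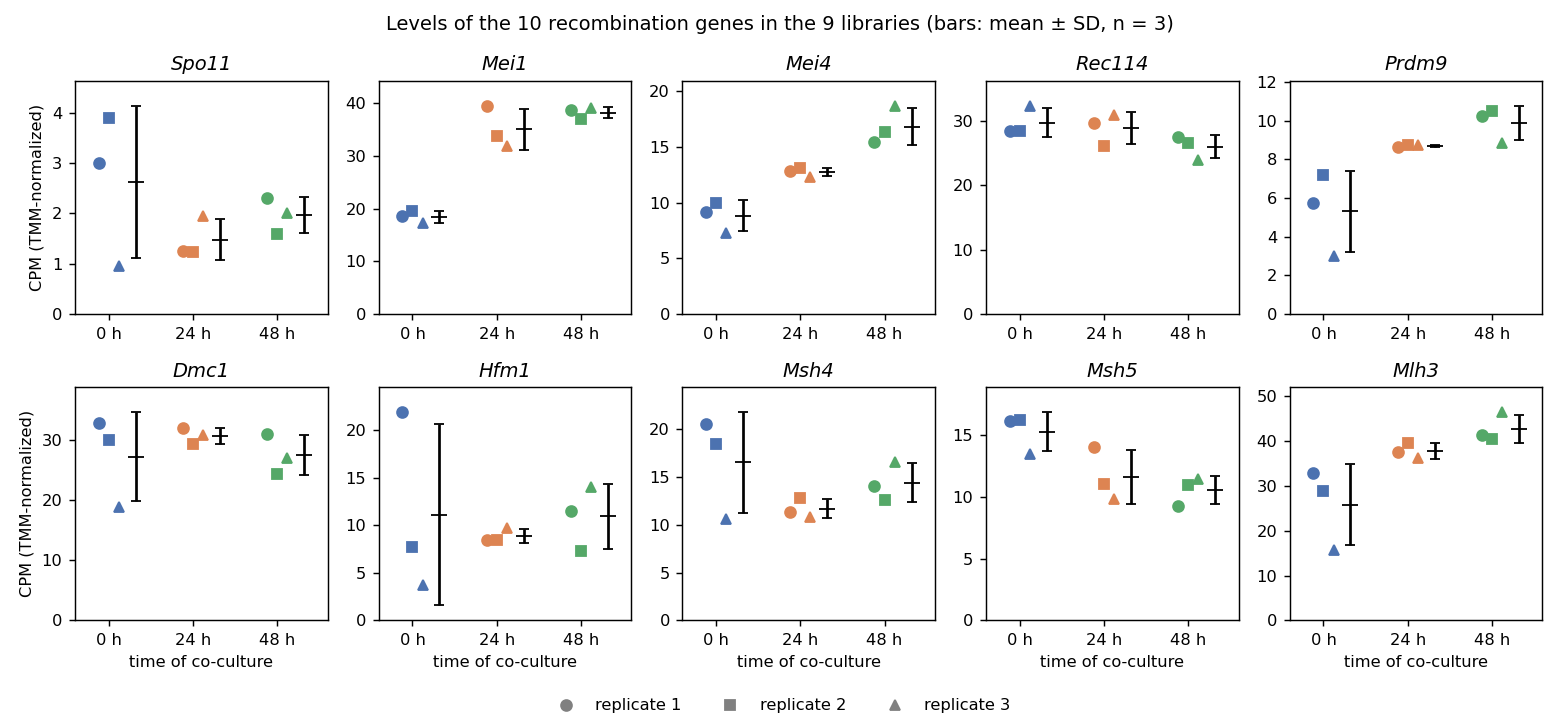
Each panel shows 1 gene, with time of co-culture on the x axis and TMM-normalized CPM on the y axis from 0. Points are libraries (circle, square and triangle for replicates 1, 2 and 3), and black bars are the mean ± SD of 3 libraries. Mei1 goes from 18.5 CPM to 35.1 and 38.3 CPM with no overlap with 0 h, while the 0 h libraries of Hfm1 spread from 3.73 to 21.9 CPM.

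Mei1 (ENSMUSG00000068117, chromosome 15, 82069996 to 82126814, GRCm38) encodes a protein without which meiotic breaks do not form. Its levels in replicates 1, 2 and 3 were 18.6, 19.6 and 17.3 CPM at 0 h, 39.5, 33.8 and 32.0 CPM at 24 h, and 38.7, 37.0 and 39.1 CPM at 48 h. Every co-culture library lay above every 0 h library. Mei1 was 1.90-fold higher at 24 h (log2 fold change 0.93, SE 0.13, adjusted p = 0.00212, by the quasi-likelihood test of edgeR, adjusted after Benjamini and Hochberg). At 48 h it was 2.08-fold higher than at 0 h (log2 fold change 1.06, SE 0.11, adjusted p = 0.000439). From 24 h to 48 h its log2 fold change was 0.13 (SE 0.09, adjusted p = 0.309), and the groups overlapped. With offsets for GC content and length that value was 0.31 and passed the threshold (adjusted p = 0.0309). The call against 0 h held at both times under every alternative run, including without each library, with log2 fold changes of 0.83 to 1.04 at 24 h and 1.03 to 1.28 at 48 h.

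Mei4 (ENSMUSG00000043289, chromosome 9, 81863670 to 82206007) encodes a partner of REC114 on the chromosome axis. In replicates 1, 2 and 3 it stood at 9.16, 9.99 and 7.30 CPM at 0 h, 12.8, 13.1 and 12.3 CPM at 24 h, and 15.4, 16.4 and 18.7 CPM at 48 h. The 3 groups did not overlap and followed the order of time. At 48 h Mei4 was 1.91-fold higher than at 0 h (log2 fold change 0.94, SE 0.17, adjusted p = 0.00562), and this call held under every alternative run and without each library. Its 24 h value was 1.44-fold that of 0 h (log2 fold change 0.53, SE 0.17), with an adjusted p of 0.0532. That comparison passed the threshold with DESeq2 (adjusted p = 0.0484), with library size alone (0.0280), with a count minimum of 10 (0.0437), in a fit of all 9 libraries (0.0231) and without 0 h replicate 1 (0.0495). Mei4 rose 1.33-fold between 24 h and 48 h (log2 fold change 0.41, SE 0.10, adjusted p = 0.0237), the single call of the set between those times. This last call was lost in a fit of all 9 libraries (0.130), with offsets for GC and length (log2 fold change 0.20, 0.296), and without 24 h replicate 1 (0.0740), 24 h replicate 3 (0.0548) or 48 h replicate 3 (0.0824).

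**Figure D3:**
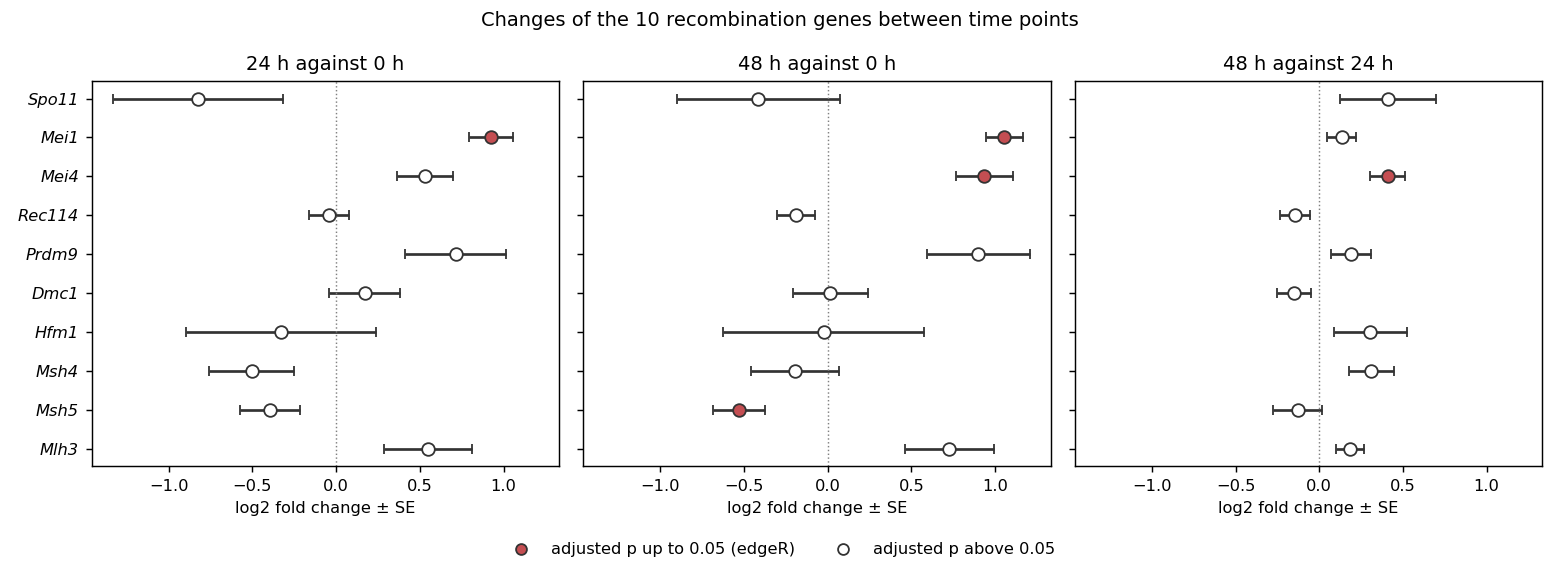
Log2 fold changes of the 10 genes are on the x axis, in a panel for each comparison of time points. Bars are the SE derived from the edgeR test. Filled points have an adjusted p of up to 0.05: Mei1 at 24 h (0.93) and 48 h (1.06), Mei4 at 48 h (0.94) and between 24 h and 48 h (0.41), and Msh5 at 48 h (−0.53).

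Prdm9 (ENSMUSG00000051977, chromosome 17, 15543079 to 15564354), which sets the sites of breaks, had co-culture libraries that were all above those of 0 h, without passing the main test. Its levels were 5.72, 7.17 and 3.02 CPM at 0 h, 8.65, 8.75 and 8.73 CPM at 24 h, and 10.2, 10.5 and 8.86 CPM at 48 h. Log2 fold changes were 0.71 at 24 h (SE 0.30, adjusted p = 0.132) and 0.90 at 48 h (SE 0.31, adjusted p = 0.0626). The 0 h libraries spread more than those of 24 h or 48 h. Without 0 h replicate 3 the 24 h value was 0.45 (adjusted p = 0.0872) and the 48 h value 0.64 (0.0331), and without 0 h replicate 2 the 48 h value was 1.18 (0.0446). DESeq2 called it at 48 h (0.0238), as did 7 of 9 alternatives that kept all libraries, and offsets for GC and length called it at both 24 h (0.0372) and 48 h (0.0174).

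Spo11 (ENSMUSG00000005883, chromosome 2, 172977700 to 172993576), the gene of the cutting enzyme itself, had the lowest level of the set. It had 19 to 79 counts in a library, or 3.01, 3.91 and 0.956 CPM at 0 h, 1.26, 1.23 and 1.95 CPM at 24 h, and 2.31, 1.59 and 2.00 CPM at 48 h. The 0 h libraries spanned all others. Its log2 fold changes were −0.83 at 24 h (SE 0.51, adjusted p = 0.291) and −0.41 at 48 h (SE 0.49, adjusted p = 0.571), so that no change was detectable at this depth and spread. Without 0 h replicate 3, the 24 h value was −1.20 (adjusted p = 0.0221), and the 48 h value was −0.80 (0.0591). Without 0 h replicate 2 they were −0.41 (0.668) and −0.0013 (0.999).

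Rec114 (ENSMUSG00000074269, chromosome 9, 58652850 to 58743964) gave no call. Its levels were 28.5, 28.5 and 32.4 CPM at 0 h, 29.7, 26.1 and 31.0 CPM at 24 h, and 27.5, 26.6 and 24.0 CPM at 48 h. Libraries at 48 h lay just below those at 0 h. Its log2 fold changes were −0.04 at 24 h (SE 0.12, adjusted p = 0.847) and −0.19 at 48 h (SE 0.11, adjusted p = 0.253). Of the exon bases of Rec114, 26.9% overlap Nptn, a cell adhesion gene on the opposite strand, and the library protocol marks no strand, so that reads of the 2 genes cannot be told apart there.

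Dmc1 (ENSMUSG00000022429, chromosome 15, 79561497 to 79605109), the meiosis-specific recombinase, was measured at similar levels in co-culture and 0 h libraries. It stood at 32.7, 30.0 and 18.8 CPM at 0 h, 31.9, 29.2 and 30.8 CPM at 24 h, and 30.9, 24.4 and 27.0 CPM at 48 h. A single library, 0 h replicate 3, lay apart. Log2 fold changes were 0.17 at 24 h (SE 0.21, adjusted p = 0.621) and 0.02 at 48 h (SE 0.22, adjusted p = 0.968). From 24 h to 48 h the value was −0.15 (SE 0.10, adjusted p = 0.322), and it passed the threshold, lower at 48 h, with offsets for GC and length (−0.31, adjusted p = 0.0491).

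Among the crossover genes, Msh5 fell at 48 h. Msh5 (ENSMUSG00000007035, chromosome 17, 35028605 to 35046745) stood at 16.2, 16.2 and 13.5 CPM at 0 h, 14.02, 11.0 and 9.80 CPM at 24 h, and 9.27, 10.9 and 11.5 CPM at 48 h. The 48 h libraries were all below the 0 h libraries, while 24 h and 0 h overlapped. At 48 h its log2 fold change was −0.53 (SE 0.15, adjusted p = 0.0362), or 0.692 times the 0 h level, and at 24 h it was −0.40 (SE 0.18, adjusted p = 0.156). The 48 h call was lost with library size alone (0.0750), with no filter (0.0634) and with offsets for GC and length (log2 fold change −0.28, adjusted p = 0.247). It was also lost without 0 h replicate 1 (0.0549), 0 h replicate 2 (0.111), 48 h replicate 1 (0.144), 48 h replicate 2 (0.0987) or 48 h replicate 3 (0.0788), and kept without 0 h replicate 3 (0.0192).

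Msh4 (ENSMUSG00000005493, chromosome 3, 153857149 to 153906138) encodes the partner of MSH5, and its values did not pass the test. It stood at 20.5, 18.4 and 10.6 CPM at 0 h, 11.4, 12.7 and 10.8 CPM at 24 h, and 13.99, 12.6 and 16.6 CPM at 48 h. The 0 h libraries covered the range of both other groups. Its log2 fold changes were −0.50 at 24 h (SE 0.25, adjusted p = 0.199) and −0.20 at 48 h (SE 0.26, adjusted p = 0.622). Without 0 h replicate 3 the 24 h value was −0.72 (adjusted p = 0.00772), and without 0 h replicate 1 the values were −0.31 at 24 h (0.378) and −0.00058 at 48 h (0.999). Between 24 h and 48 h it was 0.31 (SE 0.13, adjusted p = 0.128), and 0.42 without 48 h replicate 2 (0.0436).

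Hfm1 (ENSMUSG00000043410, chromosome 5, 106840192 to 106926321), the helicase gene, varied most among the 0 h libraries, with 21.9, 7.76 and 3.73 CPM. At 24 h it stood at 8.49, 8.48 and 9.70 CPM and at 48 h at 11.5, 7.32 and 14.01 CPM. All co-culture values fell inside the 0 h range. Log2 fold changes were −0.33 (SE 0.57, adjusted p = 0.732) and −0.03 (SE 0.60, adjusted p = 0.981), and the SE was too wide for a change of this size to be detectable. For 48 h against 24 h the value was 0.31 (SE 0.22, adjusted p = 0.351), and 0.54 without 48 h replicate 2 (adjusted p = 0.0210).

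Mlh3 (ENSMUSG00000021245, chromosome 12, 85234520 to 85270599), the nuclease subunit, was higher in each co-culture library than in any 0 h library, without passing the main test. Its levels were 33.0, 28.9 and 15.7 CPM at 0 h, 37.7, 39.6 and 36.2 CPM at 24 h, and 41.3, 40.5 and 46.4 CPM at 48 h. The 24 h and 48 h groups did not overlap either. Log2 fold changes were 0.55 at 24 h (SE 0.26, adjusted p = 0.179) and 0.73 at 48 h (SE 0.27, adjusted p = 0.0775). The 48 h comparison passed the threshold with DESeq2 (0.0332), in a fit of all 9 libraries (0.0314), with offsets for GC and length (log2 fold change 0.59, adjusted p = 0.00743), without 0 h replicate 1 (0.95, adjusted p = 0.0210) and without 0 h replicate 3 (0.49, adjusted p = 0.0203). At 24 h it passed with the same offsets (0.54, adjusted p = 0.0120) and without 0 h replicate 1 (0.77, adjusted p = 0.0499), and it was 0.31 without 0 h replicate 3 (0.0864).

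Levels between genes were compared as FPKM, which divides by the length of each gene's exons. Rec114 was highest at each time, with 23.3 ± 1.75, 22.7 ± 1.96 and 20.4 ± 1.43 FPKM at 0, 24 and 48 h (SD, n = 3), subject to its overlap with Nptn. Dmc1 came next with 11.2 ± 3.02, 12.6 ± 0.545 and 11.3 ± 1.35 FPKM, and neither gene overlapped its neighbours in this order. The other 8 genes lay between 0.669 FPKM (Spo11) and 3.90 FPKM (Mei1) at 0 h, where each overlapped the next in order. At 48 h the order was Mei1 (8.07 ± 0.231 FPKM), Mlh3 (5.66 ± 0.426) and Mei4 (4.08 ± 0.404), each apart from the next. Prdm9 (2.29 ± 0.206), Msh4 (2.08 ± 0.293) and Msh5 (1.91 ± 0.206) each overlapped with the next in order, Hfm1 (1.64 ± 0.505) followed, and Spo11 was last with 0.501 ± 0.0918 FPKM, below Hfm1 without overlap. With the longest transcript as length, Rec114 and Dmc1 stayed first at 0 h, while Msh5 (5.30 FPKM) and Msh4 (4.96 FPKM) came before Mlh3 (4.73 FPKM) and Mei1 (4.47 FPKM).

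Other genes of the pathway were described from 3 lists with 45 genes matched in the annotation. The identifiers of Ankrd31 and Spata22 were absent from the count files, and the other 43 genes were tested. Of these, 3 rose and 3 fell at 24 h, 2 rose and 4 fell at 48 h, and 5 rose and 3 fell between 24 h and 48 h, where 25.5%, 31.6% and 21.3% of all genes tested were called. Their median log2 fold changes against 0 h were −0.08 and 0.12. Among 8 genes of break formation and hotspots edgeR called 0 against 0 h at either time, with 0 and 1 at an unadjusted p under 0.05, and DESeq2 called 0 and 1. With offsets for GC and length, 1 of the 8 was called at 24 h and 4 at 48 h, all higher. Over all genes tested, those offsets called 6327 of 17592 at 24 h (3137 higher) and 7600 of 17755 at 48 h (3784 higher). Atm, a kinase that signals breaks, rose between 24 h and 48 h (log2 fold change 0.87, SE 0.21, adjusted p = 0.0203), a call kept in 9 of 15 alternative fits. Among 20 genes of end resection and strand exchange, 3 were called at 24 h, all lower, where 14.2% of all genes tested were called lower. These were Meiob, a single-strand binding protein (−1.45, SE 0.37, adjusted p = 0.0263), Mnd1, a cofactor of DMC1 (−0.85, SE 0.18, adjusted p = 0.0116), and 4930432K21Rik, known as Brme1, a factor of meiotic strand exchange (−0.73, SE 0.16, adjusted p = 0.0139).

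At 48 h the same 3 of the 20 genes were called lower than at 0 h (Meiob −1.50, Mnd1 −0.57, 4930432K21Rik −0.50), where 18.5% of all genes tested were called lower. All 3 were lower in each of 15 alternative fits, and the calls of Meiob, Mnd1 and 4930432K21Rik held in 10, 13 and 12 of them at 24 h and in 9, 7 and 5 at 48 h. The number of the list called lower, 3 at each time, was 0 to 3 at 24 h and 0 to 5 at 48 h without each library. It was 0 at 24 h without 24 h replicate 1, and 0 at 48 h without 0 h replicate 2 or any 1 of the 48 h libraries. It was 1 at 24 h without 0 h replicate 2, 24 h replicate 2 or 24 h replicate 3, and 1 at 48 h without 0 h replicate 3, with library size alone or with no filter. Nbn, a subunit of the complex that processes broken ends in all cells, was higher at 48 h (1.21, SE 0.25, adjusted p = 0.00951), in all 15 alternative fits too. Meiob levels were low throughout, with 3.02 ± 1.32, 1.10 ± 0.0637 and 1.06 ± 0.327 CPM in the order of time (SD, n = 3).

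Among 15 genes of crossover formation, 3 were called at 24 h, all higher, where 11.4% of all genes tested were called higher, and these act in nuclease pathways or the cell cycle also outside meiosis. Eme1, the partner of MUS81, rose at 24 h (0.66, SE 0.13, adjusted p = 0.0103) and 48 h (0.81, SE 0.11, adjusted p = 0.00156). Slx4, a scaffold of nucleases, rose at 24 h (0.43, SE 0.12, adjusted p = 0.0381), as did Cdk2, a kinase (0.36, SE 0.10, adjusted p = 0.0290). Cntd1, which is known for crossover maturation, fell at 48 h (−1.23, SE 0.27, adjusted p = 0.0121), from 4.05 ± 0.720 to 1.72 ± 0.368 CPM (SD, n = 3). The calls of Eme1 held in 12 of 15 fits at 24 h and in all 15 at 48 h, that of Cntd1 in 14, and those of Slx4 and Cdk2 in 9 each. Without 0 h replicate 2, 24 h replicate 1 or 24 h replicate 3, none of Eme1, Slx4 and Cdk2 passed at 24 h, while without 24 h replicate 2 Eme1 passed.

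**Figure D4:**
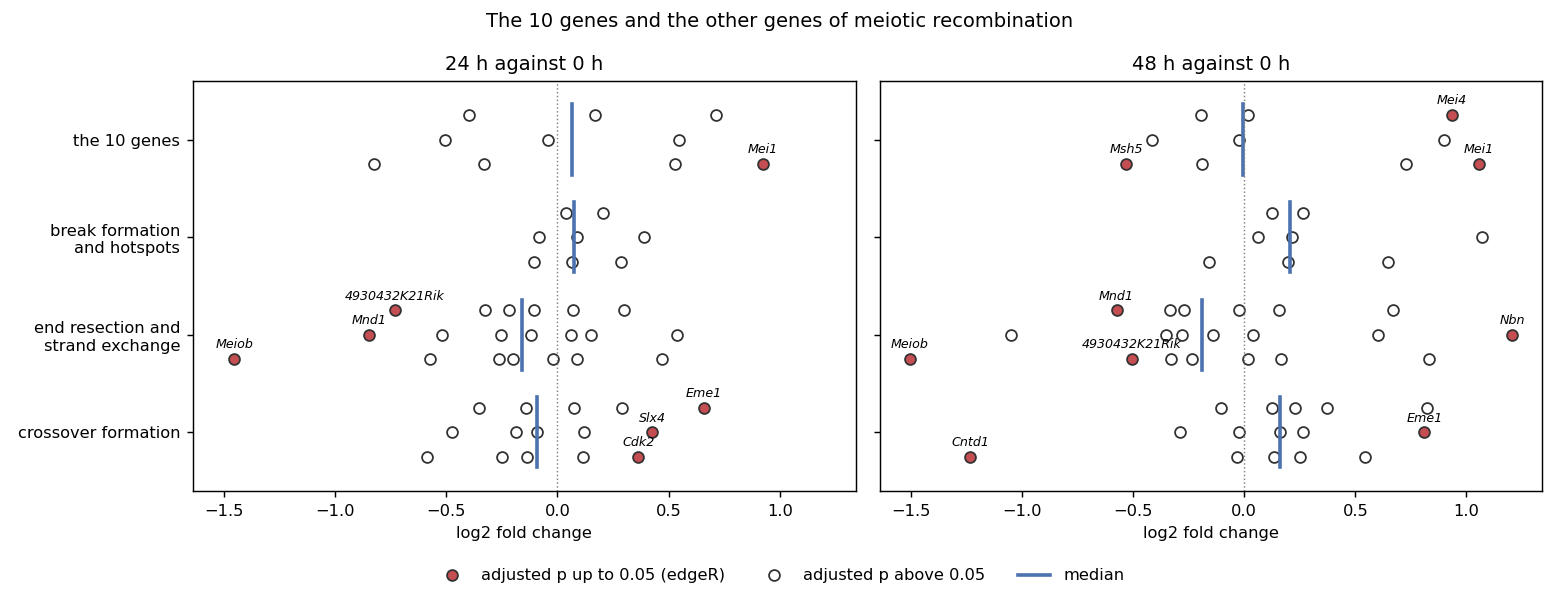
Each point is a gene, placed by its log2 fold change on the x axis and by its list on the y axis, with 24 h against 0 h on the left and 48 h against 0 h on the right. Filled and named points have an adjusted p of up to 0.05, and blue lines are list medians. Meiob lies farthest to the left at −1.45 and −1.50, and Mei1 is the rightmost of the 10 genes at 0.93 and 1.06.

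Stra8, Gm4969 and Rec8, genes of meiotic entry, rose by more than any of the 10 recombination genes at 48 h. Of 8 such genes, 3 rose at 24 h and 4 at 48 h, where 11.4% and 13.0% of all genes tested were called higher. Log2 fold changes were above 0 for 4 of the 8 at 24 h, down to −1.01, and for 6 at 48 h. Meioc stood at 52.3 ± 36.7 CPM at 0 h and 26.2 ± 5.70 CPM at 24 h (SD, n = 3). Sycp1 stood at 78.8 ± 80.6 and 39.8 ± 13.6 CPM, and Hormad1 at 23.9 ± 13.8 and 20.2 ± 4.37 CPM. None of these 3 was called. Their GC content is 38.5%, 34.6% and 35.8%, in the range where the 0 h libraries differed most. With offsets for GC and length, 1 of the 8 was called lower at 24 h. Stra8, which encodes the retinoic acid induced factor of meiotic entry, had a mean level of 2.57 ± 0.586 CPM in the 0 h libraries, 918 ± 47.3 CPM in those of 24 h and 482 ± 25.9 CPM in those of 48 h (SD, n = 3). Its partner Meiosin, listed as Gm4969, stood at 2.04 ± 0.723, 4.97 ± 0.773 and 8.20 ± 0.747 CPM. Against 0 h it rose by a log2 fold change of 1.28 (SE 0.30, adjusted p = 0.0194) and then 2.00 (SE 0.28, adjusted p = 0.00171). Rec8, a meiotic cohesin, stood at 22.4 ± 1.65, 111.5 ± 7.88 and 63.2 ± 3.17 CPM, higher than at 0 h at both times. Sycp3, a protein of the chromosome axis, rose at 48 h (1.26, SE 0.30, adjusted p = 0.0175). After 24 h, 5 of the 8 were called, where 21.3% of all genes tested were. Stra8 (−0.92) and Rec8 (−0.81) fell, while Gm4969 (0.73), Sycp3 (0.40) and Ythdc2, an RNA helicase of meiotic entry (0.67, SE 0.17, adjusted p = 0.0232), rose, as Mei4 did. The Sycp3 call held in 12 of 15 alternative fits at 48 h against 0 h and in 7 of 15 between 24 h and 48 h. That of Ythdc2 between 24 h and 48 h held in 9 of 15. With offsets for GC and length, the calls of Sycp3 and Mei4 between 24 h and 48 h were lost. Those of Gm4969 and Ythdc2 were kept.

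The genes whose log2 CPM over the 9 libraries was most like that of the 3 changed genes are given as a description, among 16887 other genes. These correlations rest on 3 time points and on shared libraries. For Mei1 they were Elf1 (r = 0.993), Plxna3 (0.990) and Rab36 (0.989), and 360 genes reached 0.95. For Mei4 they were 4930594M22Rik (0.989), Itga8 (0.988) and Tpx2 (0.985), and 125 genes reached 0.95. For Msh5 they were Dcp1a (0.964), Zfp280b (0.956) and Cdnf (0.949), and 2 genes reached 0.95.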

How the data were processed

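RNA was extracted with Trizol, mRNA was selected with poly-T beads, and libraries were made by a protocol that marks no strand. The authors deposited raw read counts per gene, 1 table for each of the 9 libraries, with no normalization. The submitters' processing notes name fastp, HISAT2, featureCounts and GRCm38, and their versions and the annotation release are not given in the sources used here. The study's own tests used DESeq2. Symbols, positions, GC content and exon lengths came from GENCODE M21 (GRCm38), and promoters from RefSeq (GRCm38.p6). GC content is that of each gene's longest transcript. Identifiers without a symbol in M21 numbered 849 of 46078 and held at most 0.121% of a library's counts. They stayed in the tests.

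Each comparison of time points used the 6 libraries of its groups, filterByExpr, TMM normalization and edgeR 4.0.16 (R 4.3.3), with its quasi-likelihood test, two-sided. Adjustment after Benjamini and Hochberg ran over all genes tested, and the threshold was 0.05. The SE given is the absolute log2 fold change divided by the square root of the test's F statistic. CPM were TMM-normalized over the 9 libraries, FPKM took the union of a gene's exons as its length, and log2 CPM used a prior count of 2. A value of 3 counts, the floor, equals at most 0.184 CPM, and every gene of the set had at least 19 counts in each library. Replicate libraries differed by more than sampling noise (chi-square per degree of freedom of 7.13 to 81.4), so that none was taken as the same library deposited again, which does not show that they came from separate cultures. Alternatives were DESeq2 1.42.0, DESeq2's size factors, library size alone, no filter, a count minimum of 10, a fit of all 9 libraries, a block for the replicate number, offsets for GC content and length from natural splines, both of these together, and each library left out. Tested on simulated data for 24 h against 0 h over 17211 genes, the edgeR step recovered 37 of 100 genes changed 2-fold and 79 of 100 changed 4-fold, with 6 false calls, and made 1 call over 17235 genes when none was changed. Only 200 genes were changed there, where the real comparison called 4494. Counts were drawn for each gene independently, without the spread along GC content of the 0 h libraries. These rates therefore need not hold for the real data.

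The 10 genes, the lists and the motifs were chosen with earlier results of these data known. Genes named are the 10, the called genes of each pathway list with the largest changes against 0 h (up to 3 in each direction), the lists of meiotic entry and of repressors where described, and for each changed gene of the set the 3 most correlated genes. Some genes that the rule also names are not reported here. Atm was named beyond this rule, after its values were seen, as the single call of its list. A stretch of 75 bases with at least 97% identity to another gene's transcript (BLAST 2.17.0) was found for Mei4 (5.09% of its longest transcript), Rec114 (28.8%, Nptn), Prdm9 (3.21%) and Mlh3 (1.37%), and for none of the other 6 genes. Python 3.11.15 and matplotlib 3.10.9 served for the figures.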

Additional observations from a re-analysis of the deposited data

How the results depend on the processing

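The number of the 10 genes called at 24 h against 0 h was 1, and 2 with DESeq2, library size alone, a count minimum of 10 or all 9 libraries in 1 fit, and 3 with offsets for GC and length, alone or with the replicate block. At 48 h against 0 h it was 3, and 5 with DESeq2 or with all 9 libraries. Between 24 h and 48 h it was 1, and 0 with all 9 libraries or the replicate block and 2 with the offsets (Dmc1 lower and Mei1 higher). Of all genes at 24 h against 0 h, the fits that gave 2 called 4715, 4802, 4088 and 5751, in the order named. The offsets called 6327 there, and 5367 with the block. At 48 h against 0 h, DESeq2 called 5963 and the fit of all 9 libraries 6945. Between 24 h and 48 h the offsets called 3635. Leaving out each library gave 1 to 3, 2 to 5 and 0 to 3 genes of the set, and 2607 to 6023, 3471 to 7116 and 1857 to 4356 of all genes, where the full comparisons called 4494, 5602 and 3732. With all 9 libraries in 1 fit, 1043 genes were called between 24 h and 48 h. Mei1 kept its call against 0 h at both times, and Mei4 at 48 h, in all 15 alternative fits each.

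Values that changed sign had no call. Rec114 at 24 h gave 0.072 with library size alone, 0.0052 with a count minimum of 10, and −0.088 to 0.040 without each library. Hfm1 gave 0.026 (24 h) and 0.25 (48 h) with the replicate block, 0.082 at 48 h with library size alone, and −0.72 to 0.64 and −0.42 to 0.94 without each library. Dmc1 gave −0.15 at 48 h with the offsets, alone or with the block, and −0.016 to 0.34 (24 h) and −0.17 to 0.18 (48 h) without each library. Msh5 between 24 h and 48 h gave 0.053 with the offsets, 0.060 with the block added, and −0.22 to 0.012 without each library. The cause was not tested.

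The labels number replicates 1 to 3 in each group, and correlations of deviations from group means between libraries of the same number ran from −0.28 to 0.19, so that the numbers are not known to pair samples. With the replicate block, 3007, 4013 and 2497 genes were called, Mei1, Mei4 and Prdm9 passed at 48 h, and Msh5 did not (adjusted p = 0.106), nor did Mei4 between 24 h and 48 h (0.0589, and 0.351 with the offsets added). With the block, 2 genes of end resection and strand exchange were called lower at 24 h and 0 at 48 h. Library size alone moved the median log2 fold change of all genes at 24 h from 0.01 to 0.12 and the share of higher among called genes from 44.5% to 57.1%. With the longest transcript as length, 23 of 30 FPKM means moved by more than their SD.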

Other observations

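Of 9 genes that encode repressors of germline genes, among them parts of a Polycomb complex that holds meiotic genes off in other cells, 1 rose and 3 fell at 24 h against 0 h, and 1 rose and 1 fell at 48 h, by edgeR's quasi-likelihood test, where 25.5% and 31.6% of all genes tested were called. From 24 h to 48 h 4 of the 9 were called, where 21.3% of all genes were. Uhrf1, needed for maintenance of DNA methylation, fell at both times (log2 fold change −0.79, SE 0.11, adjusted p = 0.00232 at 24 h and −1.19, SE 0.13, adjusted p = 0.000502 at 48 h). Pcgf6, a subunit of that complex, fell at 24 h (−0.79, SE 0.16, adjusted p = 0.0104) and rose between 24 h and 48 h (0.54, SE 0.09, adjusted p = 0.00456). E2f6 (0.26, SE 0.07, adjusted p = 0.0237) and Mga (0.84, SE 0.24, adjusted p = 0.0376), both of the same complex, also rose between those times, and Uhrf1 fell (−0.39, SE 0.08, adjusted p = 0.00741). Max, which binds DNA with Mga in the complex, fell at 24 h (−0.47, SE 0.11, adjusted p = 0.0174). L3mbtl2, another subunit, rose at 24 h (0.66, SE 0.14, adjusted p = 0.0131) and 48 h (0.50, SE 0.15, adjusted p = 0.0357). In 15 alternative fits each, Uhrf1 was called in all at both times, Pcgf6 in 13, Max in 9 and L3mbtl2 in 11 at 24 h, and L3mbtl2 in 10 at 48 h. Between 24 h and 48 h, Pcgf6 was called in 15, Uhrf1 in 13, E2f6 in 10 and Mga in 7 of these fits. The Mga call was lost with offsets for GC and length.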
